A study of Mus musculus with 2 samples.

Results

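The genes of serine synthesis and of folate-borne one-carbon transfer were read out in cultured primary mouse brain pericytes (PCs), the mural cells that sit on brain capillaries. The 10 genes were *Phgdh*, *Psat1*, *Psph*, *Shmt1*, *Shmt2*, *Mthfd1*, *Mthfd2*, *Mthfd1l*, *Aldh1l2* and *Tyms*, taken by symbol from the 31053 genes listed for each library. They were compared as 3 serine synthesis genes, 3 genes of the cytosolic folate arm and 4 genes of the mitochondrial folate arm. The rule that picks them is by symbol and uses no measured value, but the genes were chosen with earlier results of these data known.

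Cells came from brains of wild type female C57BL/6N mice aged 6 to 8 weeks, with 6 mice pooled per isolation. They were grown without other cell types, and loaded on the 10x Genomics 3′ platform at passage 5 (PC5) or passage 20 (PC20), with 1 library each. By the methods of the study each culture had its own isolation, whereas the design text deposited with the data describes a single one. Taking the former, an effect of passage and an effect of isolation cannot be told apart. With 1 library per passage no test between passages was possible, and every interval below covers counting error only.

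The cells used had over 1000 genes and less than 20% of UMIs from mitochondrial genes, a UMI being the tag that marks 1 captured RNA molecule. This left 9950 of 10629 barcodes in PC5 and 4749 of 4884 in PC20, with medians of 21700 and 33424 UMIs per cell, and 20 barcodes occurred in both libraries. Most markers of the labelled identity were low in these cells, and no cells taken directly from brain were at hand for comparison. Levels are given as CPM, the UMIs of a gene per 1000000 UMIs of its library. The summed level of 5 markers of PCs (*Abcc9*, *Anpep*, *Cspg4*, *Pdgfrb* and *Rgs5*) was 53.9 CPM in PC5 and 8.53 CPM in PC20. *Pdgfrb* made up most of it, at 44.6 and 5.43 CPM, with a UMI in 54.2% and 16.5% of cells. *Anpep* was higher in PC20, at 3.00 CPM against 1.93 CPM in PC5. *Rgs5* had 0 UMIs in PC20, which allows up to 0.0157 CPM, and *Abcc9* had 1 UMI in either library. The fibroblast marker sum (*Pdgfra*, *Lum*, *Dcn* and *Col3a1*) was 1302 CPM in PC5 and 101 CPM in PC20. Most of it was *Col3a1* (1158 and 101 CPM), and *Lum* had 0 UMIs in PC20. The endothelial sum (*Pecam1*, *Cldn5*, *Kdr* and *Tek*) was 13.6 and 0.235 CPM, with *Kdr* at 12.8 CPM in PC5. The smooth muscle sum (*Acta2*, *Myh11*, *Tagln* and *Cnn1*) was 283 and 49.6 CPM. In it *Tagln* had 219 and 0.230 CPM and *Acta2* 62.8 and 49.2 CPM. The part of these marker differences in the results on the enzymes was not tested.

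Serine is made from the glycolytic intermediate 3-phosphoglycerate by PHGDH, PSAT1 and PSPH in turn. The SHMT enzymes then cleave serine to glycine and hand its side-chain carbon to tetrahydrofolate. In mitochondria the carbon is oxidised by MTHFD2 and released as formate by MTHFD1L, or burned to carbon dioxide by ALDH1L2. In the cytosol MTHFD1 takes up formate and supplies folates for purine and thymidylate synthesis, the latter by TYMS. Many of these genes are known targets of ATF4, the transcription factor of the integrated stress response, and the thymidylate branch is known to be active in S phase.

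All 10 genes had a higher level in PC20 than in PC5. A change was read as the log2 ratio of PC5 CPM over PC20 CPM, so that negative values are higher in PC20. A ratio past 1 in size, a difference of more than 2-fold, was used as the rule of size. By it 8 of the 10 genes were higher in PC20, where 19.1% of the 10504 detected genes (seen in 10% or more of the cells in 1 or both libraries) were. That limit was set on cells of unequal depth, so a gene passed it at a lower level in the deeper PC20 cells. *Shmt1* and *Aldh1l2*, with a UMI in 5.07% and 7.93% of PC5 cells, passed it through PC20 only. None of the 10 was more than 2-fold higher in PC5, where 17.9% of detected genes were. With mean UMIs per 10000 of a cell and a pseudocount of 1, which shrinks the ratios of low genes, the count in PC20 was 4 (*Phgdh*, *Psph*, *Mthfd2* and *Aldh1l2*) against 1.37% of detected genes. With a pseudocount of 0.1 it was 5, *Shmt2* being added, against 8.14%, and in PC5 it was 0 under both, against 1.4% and 9.22%. The median log2 ratio of the 10 genes was -1.50, against -0.03 for all detected genes. *Tyms* lay just inside 2-fold at -0.98, and *Psat1* just past it at -1.03.

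**Figure D1:**
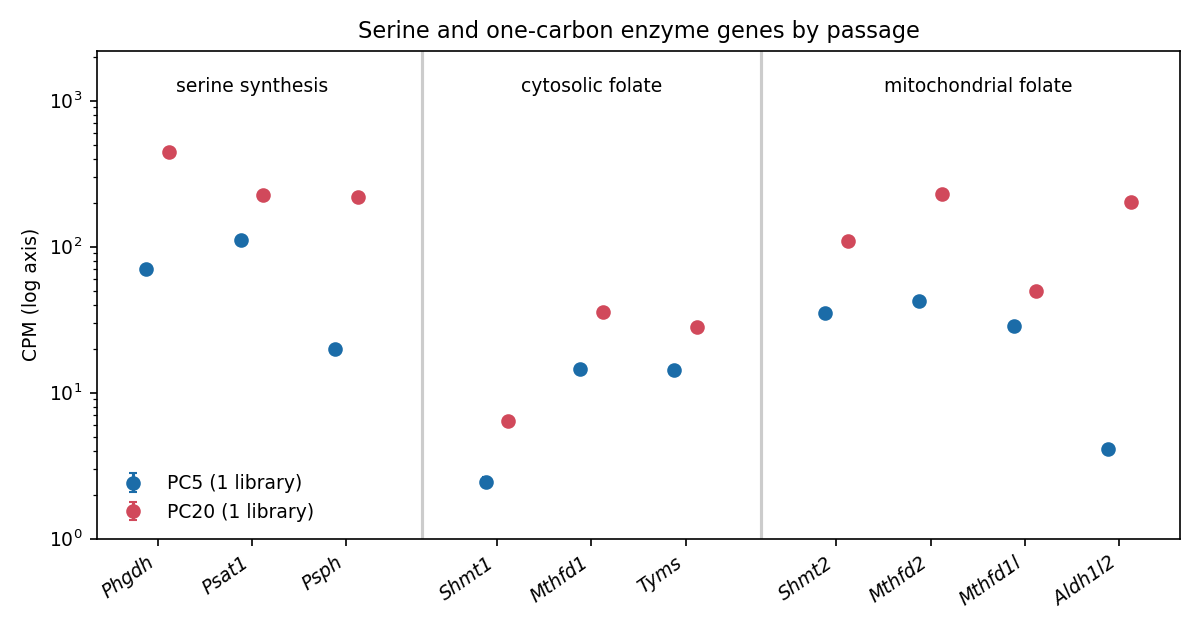
Level of each of the 10 genes in CPM on a log axis in the PC5 and PC20 library, with exact Poisson 95% intervals as bars. In each gene the PC20 point lies above the PC5 point, with the gap widest in *Aldh1l2* (4.12 against 203 CPM) and narrowest in *Mthfd1l* (28.5 against 50.02 CPM).

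The genes of serine synthesis were 2.04-fold to 11.1-fold higher in PC20. *Phgdh* (ENSMUSG00000053398, GRCm38 chr3:98313170-98339990, minus strand) encodes phosphoglycerate dehydrogenase, the first enzyme of the pathway. Its level of 69.9 CPM in PC5 compared with 443 CPM in PC20 and gave a log2 ratio of -2.67 (95% interval -2.69 to -2.64). This is a 6.35-fold difference, and 3.73% of detected genes had a lower ratio. Since PC20 cells were deeper, shares of cells with a UMI were compared after thinning each cell to 10500 UMIs, which left 8847 PC5 and 4474 PC20 cells and dropped 1103 and 275 as too shallow. The share with a *Phgdh* UMI was 64.8% in PC5 and 98.5% in PC20 before thinning and 45.3% and 96.5% after it. The Clopper-Pearson 95% limits of the shares of cells of the 10 genes lay within 1.45 percentage points. Beside this, 16 genes of other lineages (neuronal, blood, liver and others) reached a share of at most 0.543% in PC5 and 0.156% in PC20 after thinning. They do not measure RNA set free by the cultured cells themselves, which was not estimated.

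*Psph* (ENSMUSG00000029446, chr5:129765558-129787449, minus strand), which encodes the phosphatase of the last step, stood at 19.8 CPM in PC5 and at 220 CPM in PC20. Its log2 ratio of -3.47 (-3.52 to -3.43), or 11.1-fold, was the lowest of the serine genes. The share of cells with a UMI was 32.8% and 94.1%, and 18.2% and 83.8% after thinning. *Psat1* (ENSMUSG00000024640, chr19:15904678-15947337, minus strand), the aminotransferase between these steps, stood at 111 CPM in PC5 and at 228 CPM in PC20, for a log2 ratio of -1.03 (-1.05 to -1.01). Of its cells 78.3% and 95.3% had a UMI, and 62.0% and 85.7% after thinning. The make-up of the pathway's UMIs therefore differed between the libraries. *Psat1* held 55.4% of the 44852 UMIs of the trio in PC5 and 25.6% of the 170287 in PC20, while *Psph* held 9.85% and 24.7%, and *Phgdh* 34.7% and 49.8%.

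The cytosolic folate genes were 1.98-fold to 2.61-fold higher in PC20. *Mthfd1* (ENSMUSG00000021048, chr12:76255298-76319803, plus strand), the trifunctional cytosolic enzyme, stood at 14.6 CPM in PC5 and at 35.7 CPM in PC20, for a log2 ratio of -1.29 (-1.35 to -1.23). *Shmt1* (ENSMUSG00000020534, chr11:60788104-60811718, minus strand), the cytosolic serine hydroxymethyltransferase, was sparse, with 2.44 CPM from 545 UMIs in PC5 and 6.38 CPM from 1219 UMIs in PC20. Its log2 ratio was -1.38 (-1.53 to -1.24), but -0.73, and so within 2-fold, in cells without a *Mki67* or *Top2a* UMI. After thinning 2.24% of PC5 and 5.97% of PC20 cells had a *Shmt1* UMI, and the unthinned shares were 5.07% and 19.3%. *Tyms* (ENSMUSG00000025747, chr5:30058202-30073617, minus strand) encodes thymidylate synthase, which also enters the nucleus. It stood at 14.2 CPM in PC5 and at 28.1 CPM in PC20, with a log2 ratio of -0.98 (-1.05 to -0.92). Cells with a *Tyms* UMI made up 23.6% and 53.0%, or 12.1% and 23.9% after thinning, and those with *Mthfd1* 25.5% and 65.8%, or 13.6% and 31.4%.

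The mitochondrial genes held both the largest and the smallest difference among the 10. *Aldh1l2* (ENSMUSG00000020256, chr10:83487450-83534140, minus strand), the mitochondrial formyl-tetrahydrofolate dehydrogenase, was at 4.12 CPM in PC5 and at 203 CPM in PC20. Its log2 ratio was -5.62 (-5.72 to -5.53), a 49.2-fold difference, and 0.904% of detected genes had a lower one. Its cells with a UMI went from 7.93% in PC5 to 92.8% in PC20, and from 3.93% to 80.3% after thinning. *Mthfd2* (ENSMUSG00000005667, chr6:83305691-83325908, minus strand), the dehydrogenase and cyclohydrolase, was at 42.3 CPM in PC5 and at 229 CPM in PC20, with a log2 ratio of -2.44 (-2.47 to -2.40). A UMI was seen in 46.7% and 96.0% of cells, and in 29.9% and 86.8% after thinning.

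*Shmt2* (ENSMUSG00000025403, chr10:127517123-127522444, minus strand), the mitochondrial partner of *Shmt1*, was at 35.2 CPM in PC5 and at 109 CPM in PC20. The log2 ratio was -1.63 (-1.66 to -1.59), and 28.3% and 61.2% of thinned cells had a UMI (46.4% and 86.3% unthinned). *Mthfd1l* (ENSMUSG00000040675, chr10:3973118-4167081, plus strand), which releases formate, was at 28.5 CPM in PC5 and at 50.02 CPM in PC20, for a log2 ratio of -0.81 (-0.86 to -0.77). A *Mthfd1l* UMI was seen in 24.2% and 39.0% of thinned cells (42.2% and 73.2% unthinned). GENCODE places other gene models on the same strand within *Mthfd2* (*Gm43890*) and *Mthfd1l* (*Gm16074* and *Gm25515*), and reads in the shared stretches cannot be given to either gene with certainty.

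The folate arms were then compared with each other. The UMIs of the mitochondrial genes summed to 110 CPM in PC5 and to 590 CPM in PC20, for a log2 ratio of -2.42 (-2.44 to -2.40). Those of the cytosolic genes summed to 31.2 and 70.1 CPM, a log2 ratio of -1.17 (-1.21 to -1.13). The serine synthesis genes summed to 201 and 891 CPM, and their log2 ratio of -2.15 (-2.16 to -2.13) lay between those of the folate arms. Mitochondrial minus cytosolic was -1.25 (-1.30 to -1.21), so the UMI sum of the mitochondrial genes was further above its PC5 level in PC20 than that of the cytosolic genes. In shares, mitochondrial genes held 77.9% (77.4 to 78.4) of the UMIs of the 7 folate genes in PC5 and 89.4% (89.2 to 89.5) in PC20.

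The size of this difference depended in part on *Aldh1l2*. *Aldh1l2* held 3.74% of the mitochondrial arm's UMIs in PC5 and 34.3% in PC20. Without it the mitochondrial log2 ratio was -1.87 (-1.89 to -1.85) and the difference between arms was -0.70 (-0.75 to -0.66), a comparison added after the values were seen. Leaving *Tyms* out of the cytosolic arm gave a difference of -1.12 (-1.18 to -1.06). The other mitochondrial genes were uneven, with log2 ratios of -2.44 in *Mthfd2*, -1.63 in *Shmt2* and -0.81 in *Mthfd1l*. The -1.17 of the cytosolic arm lay between the values of *Shmt2* and *Mthfd1l*, so the difference of the sums does not describe each mitochondrial gene. No comparison without *Mthfd2* was made.

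Pairs of enzymes that run the same reaction in the separate compartments did not all differ alike. Each UMI tags the 3′ end of a transcript, so levels were not divided by gene length, and a pair is best read between libraries. *Shmt2* held 93.5% (93.0 to 94.0) of the *Shmt2* and *Shmt1* UMIs in PC5 and 94.5% (94.1 to 94.8) in PC20, a difference of log2 ratios of -0.24 (-0.39 to -0.09). *Mthfd2* held 74.4% (73.6 to 75.1) of the *Mthfd2* and *Mthfd1* UMIs in PC5 and 86.5% (86.2 to 86.8) in PC20, a difference of -1.14 (-1.21 to -1.08). *Mthfd1l* against *Mthfd1* went the other way, from 66.1% (65.2 to 67.1) in PC5 to 58.4% (57.6 to 59.1) in PC20, a difference of 0.48 (0.40 to 0.55).

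Partners outside the 10 genes were higher in PC5. *Aldh1l1*, the cytosolic counterpart of *Aldh1l2* and a known astrocyte marker, had 1640 UMIs (7.35 CPM) in PC5 and 5 UMIs (0.0262 CPM) in PC20, for a log2 ratio of 8.13 (6.91 to 9.76). *Aldh1l2* therefore held 35.9% (34.1 to 37.8) of the pair's UMIs in PC5 and 99.99% in PC20. Of the other 3 astrocyte markers, the UMIs of *Gfap* numbered 97 in PC5 and 0 in PC20 and those of *Aqp4* 28 and 1, while *Slc4a4* was at 143 CPM in PC5 and at 229 CPM in PC20. *Mthfd2l*, the second mitochondrial dehydrogenase, was higher in PC5, with 46.4 CPM against 15.7 CPM and a log2 ratio of 1.56 (1.51 to 1.62). *Mthfd2* held 47.7% (47.0 to 48.4) of the *Mthfd2* and *Mthfd2l* UMIs in PC5 and 93.6% (93.4 to 93.8) in PC20.

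**Figure D2:**
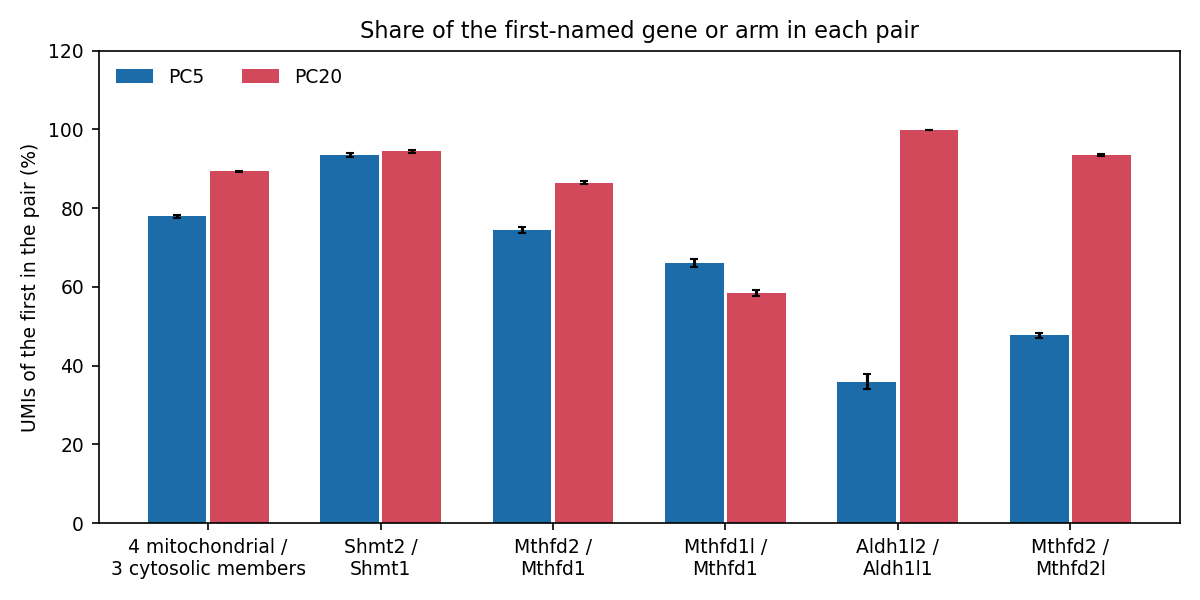
Percent of a pair's UMIs that belonged to the first-named gene or arm in PC5 and PC20, with Clopper-Pearson 95% intervals. The first-named held a larger share in PC20 than in PC5 in every pair shown except *Mthfd1l* against *Mthfd1*, where it was 66.1% in PC5 and 58.4% in PC20.

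Promoter sequence was looked up because the genes moved in the same direction between the libraries. RefSeq windows on GRCm38.p6 were at hand for 9 of the 10 genes, and *Aldh1l2* is named here only. In the 250 bases before the RefSeq start, a CCAAT box (CCAAT or its reverse complement) was found in 6 of the 10 windows of these genes, and in 33.8% of 32851 promoter windows of that length. The 6 windows with a CCAAT box were those of *Phgdh*, *Psat1*, *Psph*, *Shmt1*, *Mthfd1* and *Mthfd2*. The windows of *Mthfd2*, *Psat1* and *Shmt1* lie wholly inside the GENCODE spans given above, which reach further upstream. *Psat1* had another annotated start, whose window (chr19:15924623-15924872) held 0 matches. The sequences of *Mthfd2*, with most matches, and of the matching *Psat1* window are shown 5′ to 3′ on the gene's strand, ending at the base before the start, with the CCAAT letters of either orientation in capitals.

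*Mthfd2*, chr6:83317605-83317854, minus strand: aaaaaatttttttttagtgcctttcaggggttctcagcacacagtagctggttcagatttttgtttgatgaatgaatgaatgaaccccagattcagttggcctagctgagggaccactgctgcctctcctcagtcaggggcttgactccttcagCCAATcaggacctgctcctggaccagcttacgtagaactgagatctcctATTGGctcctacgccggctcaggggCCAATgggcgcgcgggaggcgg

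*Psat1*, chr19:15925060-15925309, minus strand: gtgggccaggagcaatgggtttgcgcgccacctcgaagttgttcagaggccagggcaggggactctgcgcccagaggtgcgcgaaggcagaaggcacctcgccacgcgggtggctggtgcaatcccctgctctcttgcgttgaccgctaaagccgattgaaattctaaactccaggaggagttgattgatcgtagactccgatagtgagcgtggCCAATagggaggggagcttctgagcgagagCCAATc

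The first bases of the *Mthfd2* matches lay 96, 47 and 22 bases before the start, and those of *Psat1* 36 and 6 bases before it. The E-box letters CACGTG occurred in 1 of 10 windows, that of *Tyms*, and in 6.02% of all windows. The letters TGATGNAA, the form searched for the response element that ATF4 binds with C/EBP proteins, were in 0 of 10 windows and in 3.45% of all. The E2F forms TTTCCCGC, TTTCGCGC, TTTGCCGC and TTTGGCGC were in 0 of 10 and in 1.86% of all. Both strands were searched, and a match in letters is no evidence of binding. Where so few of all windows match, 0 of 10 cannot tell these genes from others. Sequence past the start or further upstream was not searched.

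The rest of the pathway lay on both sides of 0. Of 54 other genes in 9 lists, 43 were detected, and their median log2 ratio was -0.07. More than 2-fold higher were 9 of them in PC20, the *Ahcy*-like genes *Ahcyl1* and *Ahcyl2* among them, and 6 in PC5. These shares, 9 and 6 of 43, are to be read against the 19.1% and 17.9% of all detected genes. Of the detected genes of these lists named below, *Slc6a9*, *Cth*, *Gatm* and *Sdsl* reached the detection limit in PC20 only and *Aldh1l1* in PC5 only. The supply of serine and glycine across membranes held values on either side. *Slc6a9*, the glycine transporter GlyT1, was at 1.08 CPM in PC5 and at 32.9 CPM in PC20 (log2 ratio -4.93, -5.12 to -4.74), whereas *Sfxn3*, of the mitochondrial serine carriers, had 51.3 and 16.7 CPM (1.62, 1.56 to 1.67). Of the 7 transport genes 3 were past 2-fold in PC20 and 2 in PC5.

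Genes of transsulfuration and those that use serine and glycine also pointed both ways. *Cth*, which makes cysteine at the end of transsulfuration, was at 1.55 CPM in PC5 and at 61.8 CPM in PC20, for a log2 ratio of -5.32 (-5.48 to -5.16). It was the only detected gene of its list, as *Cbs* was below the detection limit, with 125 UMIs in PC5 and 60 in PC20 (0.84, 0.38 to 1.31). *Gatm*, which spends glycine on creatine synthesis, had 4.14 and 73.9 CPM (-4.16, -4.26 to -4.06). *Sdsl*, a serine dehydratase-like gene, had 1.40 and 5.16 CPM (-1.88, -2.07 to -1.69). In the list of serine and glycine use, 2 of 6 detected genes were past 2-fold in PC20 and 1 in PC5. In that list 4 of the 6 were higher in PC5, and the median log2 ratio was 0.30. In the glycine cleavage system *Gldc* and *Amt* were below the detection limit and higher in PC5. *Gldc* had 304 UMIs in PC5 and 2 in PC20 (7.03, 5.16 to 10.08), and *Amt* had 296 and 58 (2.13, 1.72 to 2.56). Of the detected genes, *Gcsh* had a log2 ratio of 0.61 (0.57 to 0.64) and *Dld* of -0.73 (-0.77 to -0.69), so 0 of 2 were past 2-fold.

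Of the 7 folate uptake and retention genes 4 were detected, of which 0 were past 2-fold, and those with the largest ratios were *Slc25a32*, the mitochondrial folate carrier, with 15.4 CPM in PC5 and 8.52 CPM in PC20 (0.85, 0.77 to 0.94), and *Slc19a1*, the reduced folate carrier (0.40, 0.31 to 0.50). Among the 3 below the detection limit, *Folr1*, a folate receptor, had 16 UMIs in PC5 and 175 in PC20 (-3.67, -4.51 to -2.93), *Slc46a1*, the proton-coupled folate transporter, had 674 and 145 (1.99, 1.73 to 2.26), and *Folr2* had 4 and 0. Other folate enzymes held 2 of 6 detected genes past 2-fold in PC5, *Aldh1l1* and *Mthfd2l*, and 0 in PC20. In the methionine cycle list 2 of 7 were past 2-fold in PC20, *Ahcyl1* (-1.43, -1.45 to -1.40) and *Ahcyl2* (-1.05, -1.15 to -0.95), and 0 in PC5. Both are *Ahcy*-like genes by name, and their part in the cycle was not tested. The other 5 lay within 2-fold: *Mtr* at -0.78, *Ahcy* at -0.26, *Mtrr* and *Mat2b* at 0.46 and *Mat2a* at 0.69. In purine synthesis 1 of 6 was past 2-fold each way, *Ppat* (-1.04, -1.11 to -0.97) in PC20 and *Pfas* (1.23, 1.15 to 1.31) in PC5. None of 4 thymidylate supply genes was past it, with *Dtymk* at 0.97 (0.94 to 1.01) and *Dut* at -0.94 (-0.96 to -0.92).

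A list of 17 ATF4 targets and regulators without any of the 10 genes was placed beside them. The median log2 ratio of this list was -2.53. Of its genes 14 were past 2-fold in PC20 and 0 in PC5, beside 19.1% and 17.9% of all detected genes. Among the 14, *Trib3*, *Chac1*, *Stc2* and *Pycr1* reached the detection limit in PC20 only, so the limit itself favoured that direction. *Trib3*, an inhibitory pseudokinase, was at 2.17 CPM in PC5 and at 142 CPM in PC20, and *Ddit3*, which encodes CHOP, had 22.4 and 894 CPM. That list was picked with these results known, so its direction is no separate evidence.

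**Figure D3:**
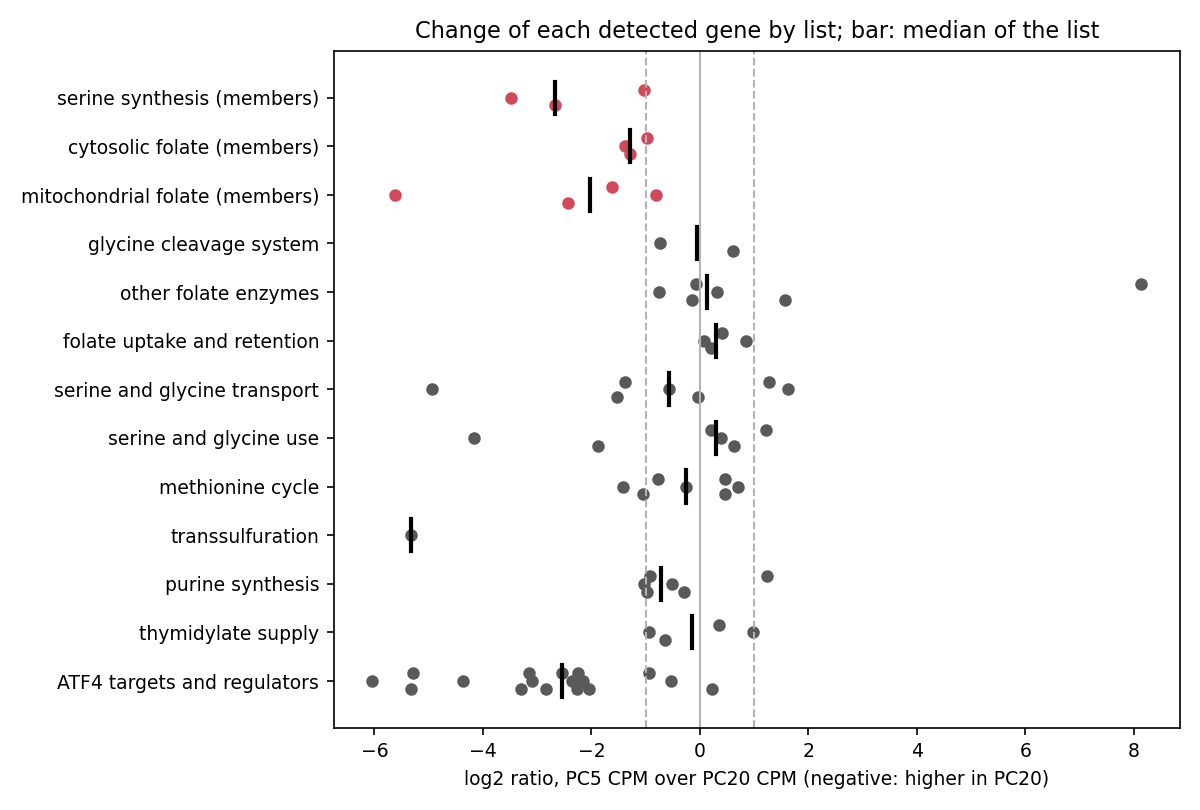
Log2 ratio of PC5 CPM over PC20 CPM of each detected gene (points), grouped by list, with a bar at the list's median and a line at 0. The points of the 3 lists that hold the 10 genes lie left of 0, while the other folate, transport and purine lists lie on both sides and the ATF4 list has a median of -2.53.

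Within the cells of a library, levels followed the cell cycle in some genes more than in others. Thinned cells were classed by UMIs of 23 S phase and 20 G2/M genes, none of them among the 10 genes: low, where both sums were at most the pooled median of 3, and otherwise S or G2/M by the larger relative sum. The low class held 46.5% of PC5 and 25.0% of PC20 cells, the S class 28.5% and 42.2%, and the G2/M class 25.0% and 32.8%. Limits of these shares lay within 1.46 percentage points, and 2762 PC5 and 1138 PC20 cells were within 1 UMI of the low class's limit. The classes are therefore ranges of a score, and their shares differed between the libraries. Of the S phase genes 10 of 23 were past 2-fold in PC20 and 1 in PC5, and of the G2/M genes 14 of 20 in PC20 and 0 in PC5. Among the 10, *Cdc45*, *Ung* and *Chaf1b* reached the detection limit in PC20 only. The shares of all detected genes past 2-fold were 19.1% in PC20 and 17.9% in PC5. Levels below are CPM over all UMIs of a class.

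*Shmt1* and *Tyms* differed most between classes. *Shmt1* had 0.903 CPM in low, 3.99 CPM in S and 3.22 CPM in G2/M cells of PC5, and 1.54, 8.95 and 6.52 CPM in PC20. Its level in S cells was thus 4.42-fold that of low cells in PC5 and 5.79-fold in PC20. *Tyms* had 6.24, 18.6 and 21.2 CPM in PC5 and 10.4, 37.7 and 28.2 CPM in PC20, 2.98-fold and 3.64-fold from low to S. The peak of *Tyms* was in the G2/M class in PC5 and in the S class in PC20.

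The other genes differed less between S and low cells than *Shmt1* and *Tyms* did in either library. *Mthfd2* had 26.6, 58.6 and 49.0 CPM in low, S and G2/M cells of PC5, and 192, 244 and 234 CPM in PC20. From low to S this is 2.20-fold in PC5 and 1.27-fold in PC20. *Shmt2* was 1.79-fold and 1.85-fold, and *Mthfd1l* 1.50-fold and 1.32-fold. *Aldh1l2* was nearly level, with 4.22, 4.02 and 4.02 CPM in PC5 (log2 of S over low -0.07, -0.30 to 0.16) and 194, 225 and 185 CPM in PC20 (0.21, 0.17 to 0.25). Of the serine genes, *Phgdh* was 1.71-fold and 1.35-fold, *Psat1* 1.50-fold and 1.28-fold, and *Psph* 1.35-fold and 1.46-fold, and *Mthfd1* was 1.81-fold and 1.28-fold.

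**Figure D4:**
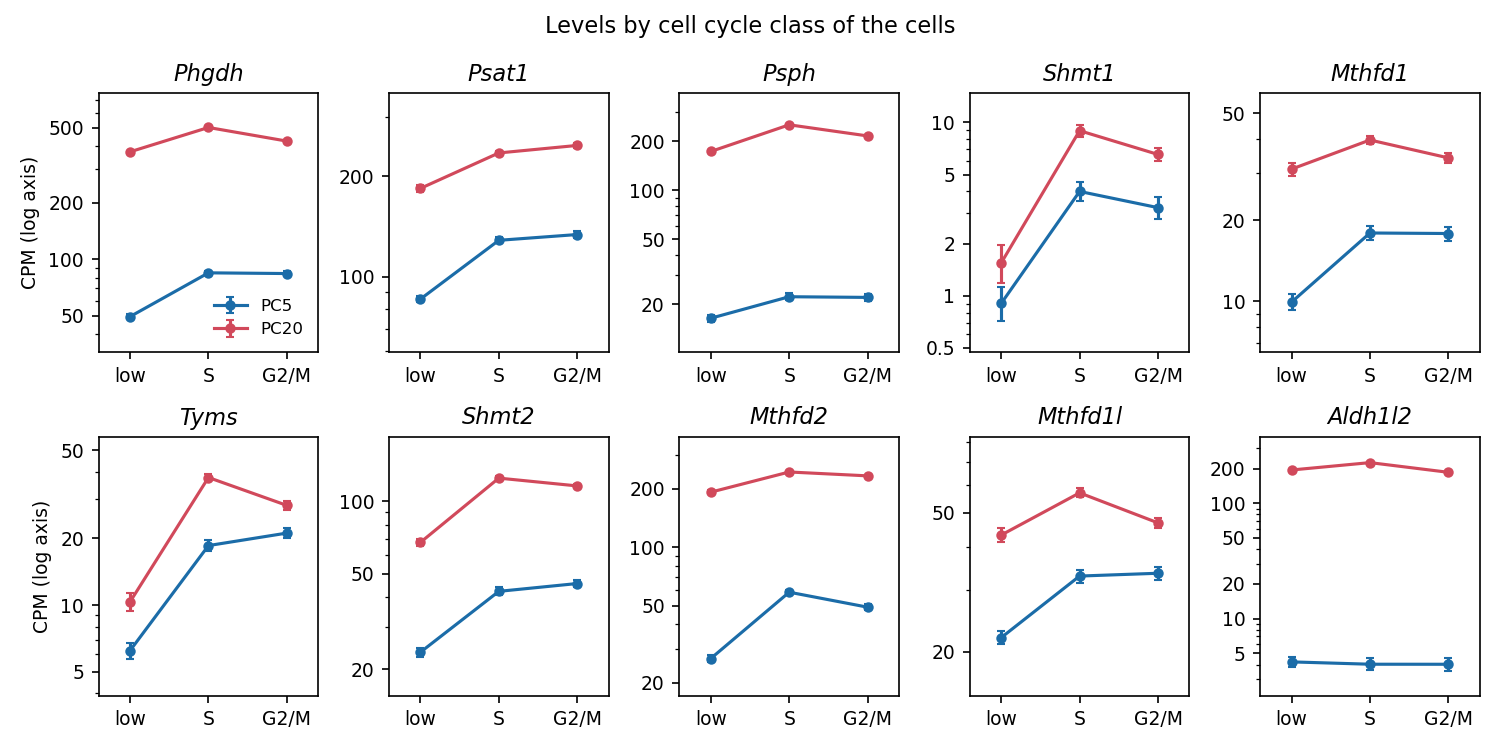
CPM (log axis, each panel on its own scale) of the 10 genes in cells of the low, S and G2/M classes of PC5 and PC20, with exact Poisson 95% intervals. *Shmt1* and *Tyms* slope up from low to S in both libraries, *Aldh1l2* is nearly flat, and in each panel the PC20 line lies above the PC5 line.

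The difference between libraries was present inside each class, but the classes were not matched in score between libraries. In the G2/M class the median of G2/M gene UMIs was 17 in PC5 and 35 in PC20. The median of S phase gene UMIs was 7 and 9 in the S class and 1 and 2 in the low class. The part of this in the values below was not tested. All 10 genes were higher in PC20 in low, S and G2/M cells, with 7, 8 and 6 of them past 2-fold, against 19.5%, 18.1% and 17.3% of detected genes in the same cells. In PC5 0 were past 2-fold in any class, against 17.3%, 18.9% and 18.9%. *Aldh1l2* was 46.1-fold, 55.9-fold and 46.1-fold higher in PC20, and *Tyms* 1.66-fold, 2.03-fold and 1.33-fold. The mitochondrial arm had log2 ratios of -2.70, -2.24 and -2.14 and the cytosolic arm of -1.33, -1.09 and -0.71. Mitochondrial minus cytosolic was -1.37 (-1.48 to -1.27), -1.15 (-1.22 to -1.08) and -1.43 (-1.51 to -1.36) in the same order.

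Clustering of all kept cells, with the 10 genes left out of the variable genes, gave 15 clusters. Of these 9 were mostly PC5 and 6 mostly PC20, so a cluster may mark a library rather than a kind of cell, and none was given a cell type name. Sets of at least 50 cells of 1 library in 1 cluster were compared, 9 in PC5 and 7 in PC20. *Phgdh*, *Psph*, *Mthfd2* and *Aldh1l2* did not overlap between the libraries' clusters, each PC20 set being above each PC5 set. This held for 6.9% of detected genes, and the reverse for 13.3% of them and 0 of the 10. The highest PC5 cluster and the lowest PC20 cluster were at 128 and 274 CPM for *Phgdh*, 33.6 and 117 CPM for *Psph*, 62.0 and 142 CPM for *Mthfd2*, and 7.65 and 34.5 CPM for *Aldh1l2*. The 128, 142 and 34.5 CPM were those of cluster 10, whose cells had few UMIs. The other 6 genes overlapped.

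Within PC5, cluster 1, led by the mitotic genes *Nusap1* and *Top2a*, had the highest level of *Shmt2* (50.4 CPM), *Mthfd2* (62.0 CPM), *Mthfd1l* (35.2 CPM) and *Shmt1* (5.04 CPM). The PC5 cells of cluster 10, with a median of 5715 UMIs, had that of *Phgdh* (128 CPM), *Psat1* (149 CPM), *Mthfd1* (25.2 CPM) and *Tyms* (28.2 CPM). Cluster 4, led by *Cxcl10*, *Trf* and *Il33*, had the lowest level of *Phgdh* (29.4 CPM), *Psat1* (63.1 CPM), *Psph* (15.3 CPM), *Mthfd1* (8.26 CPM), *Tyms* (5.95 CPM) and *Mthfd2* (20.8 CPM). *Aldh1l2* did not follow that order, and was highest in cluster 14 (led by *Mt3* and *Atf3*), from 10 UMIs in 81 cells. That cluster had 0 *Shmt1* UMIs, which allows up to 2.30 CPM.

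Within PC20, cluster 5, led by histone and *Mcm* genes, had the highest level of *Psph* (257 CPM), *Shmt1* (11.7 CPM), *Mthfd1* (41.7 CPM), *Shmt2* (145 CPM), *Mthfd2* (266 CPM) and *Mthfd1l* (57.5 CPM). Cluster 9, led by *Nfkbia* and *Cxcl10*, had the lowest level of *Psat1* (128 CPM), *Psph* (117 CPM), *Shmt1* (1.93 CPM), *Tyms* (11.9 CPM) and *Shmt2* (46.6 CPM). Cells of cluster 10, with a median of 6186 UMIs over both libraries, stood apart. Its 106 PC20 cells had 34.5 CPM of *Aldh1l2* (41 UMIs), against 141 to 228 CPM in the other PC20 sets, while their *Phgdh* was at 523 CPM (621 UMIs), beside 274 to 509.5 CPM in those sets.

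**Figure D5:**
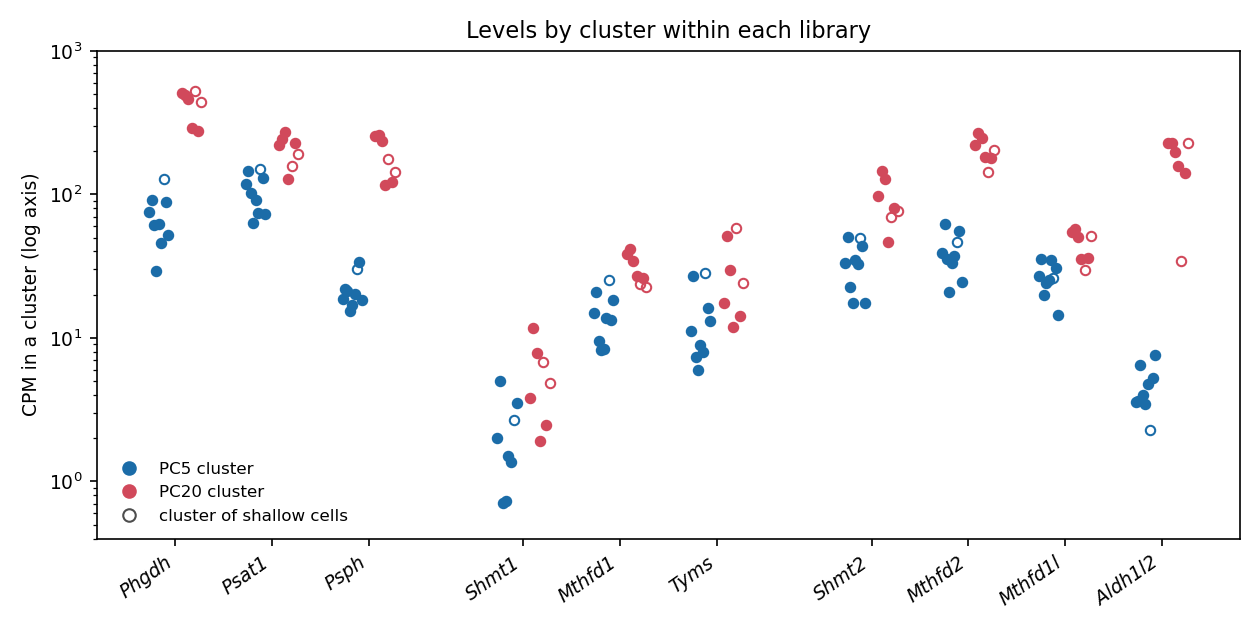
CPM of the 10 genes in each set of at least 50 cells of 1 library in 1 cluster, on a log axis, with the 2 clusters of low UMI counts marked apart (the PC5 set with 0 *Shmt1* UMIs cannot be shown). The clouds of PC5 and PC20 are apart for *Phgdh*, *Psph*, *Mthfd2* and *Aldh1l2* and overlap for the others.

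From cell to cell the 10 genes varied together only weakly. Over thinned cells Pearson's *r* of a gene pair was at most 0.150 in PC5 (8847 cells, *Phgdh* with *Psat1*) and at most 0.349 in PC20 (4474 cells, *Phgdh* with *Psph*), followed there by 0.214 for *Phgdh* with *Shmt2*. Cells share their library and the counts are sparse, so these values are descriptions. *Psat1*, *Mthfd2* and *Tyms* were set against 6369 other genes, ranked by the lower *r* of the libraries. The 5 most like *Psat1* were *Pclaf* (0.166 in PC5, 0.171 in PC20), *Hnrnpab*, *Ranbp1*, *H2afz* and *Ran*. For *Tyms* they were *Pclaf* (0.208 and 0.254), *Hmgb2*, *H2afz*, *Top2a* and *Ptma*, and for *Mthfd2* they were *Hist1h2ap* (0.155 and 0.150), *Top2a*, *Anp32b*, *H2afz* and *Ptma*.

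Cells were also ordered by their thinned UMIs of the 17 ATF4 list genes and cut into 5 equal parts within each library. In the lowest and the highest part *Aldh1l2* stood at 2.10 (1.49 to 2.87) and 6.19 (5.11 to 7.43) CPM of thinned UMIs in PC5, from 39 and 115 UMIs, and at 139 (132 to 147) and 234 (224 to 244) CPM in PC20. This is 2.95-fold and 1.68-fold. *Mthfd2* differed 1.45-fold and 1.30-fold, and *Psph* 1.22-fold and 1.44-fold. *Phgdh* had a ratio of 0.972 in PC5 and 1.19 in PC20. That of *Shmt1* was 0.558 in PC5, from 43 and 24 UMIs, and 1.21 in PC20, from 47 and 57. The *Shmt1* intervals of the lowest and highest part overlapped in each library. The other ratios lay between 0.871 (*Mthfd1* in PC5) and 1.54 (*Mthfd1l* in PC20).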

How the data were processed

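UMI counts by gene and barcode were deposited for 2 libraries of cultured PCs, 1 at passage 5 and 1 at passage 20. The authors made these counts with Cell Ranger 5.0 on mm10 (5.0.1 in the matrix header), per the labels and the file headers, and applied no normalization. The cell filter was that of the study (over 1000 genes, less than 20% mitochondrial UMIs) and left 223054273 UMIs in PC5 and 191122251 in PC20. Doublets were neither sought nor taken out.

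CPM was taken over the summed UMIs of all kept cells. Intervals at the 95% level were exact Poisson for CPM, exact conditional binomial for log2 ratios, Clopper-Pearson for shares and Wald for differences of log2 ratios. Cells that share a library do not replicate a passage, so no test was run. A gene counted as detected when 10% or more of the cells in 1 or both libraries held a UMI of it, before any thinning. Thinning used 10500 UMIs per cell. Upper limits for a count of 0 used 3 counts. Seurat 5.3.0 (R 4.3.3) clustered the cells with 2000 variable genes, regression of mitochondrial and ribosomal shares, 15 dimensions and resolution 0.8, and 7 of the 10 genes would have been among the variable genes. Other steps used Python 3.11.15. Of these, the log2 ratios, their differences, the intervals of both and the thinning were tested on simulated Poisson counts. That is the form the intervals assume, so spread between cells beyond it was not covered. Positions are those of GENCODE M21 on GRCm38 and promoters those of RefSeq on GRCm38.p6.

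The 10 genes and all lists were chosen with earlier results of these data known. Apart from the 10, the named genes are the 2 detected genes with the largest ratio in each pathway list, and for *Psat1*, *Mthfd2* and *Tyms* the 5 genes most alike in both libraries. The markers *Slc4a4*, *Lum*, *Rgs5*, *Abcc9*, *Pdgfrb*, *Anpep*, *Col3a1*, *Kdr*, *Tagln* and *Acta2* were singled out after their values were seen. So were the other genes of the astrocyte, folate uptake, glycine cleavage and transsulfuration lists, and the other detected genes of the methionine cycle list. *Chac1*, *Stc2*, *Pycr1*, *Cdc45*, *Ung* and *Chaf1b* were named for reaching the detection limit in PC20 only. The alternatives tried were stricter and absent cell filters, exclusion of cells holding *Mki67* or *Top2a* UMIs, thinning, another library size, centring, means over cells, pseudocounts of 1 and 0.1, detection in 1% of cells, arms without *Tyms* or *Aldh1l2*, and clusters with the 10 genes allowed as variable genes.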

Additional observations from a re-analysis of the deposited data

How the results depend on the processing

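Each of the 10 genes kept its direction under the 7 alternative settings of cells and scaling. In cells without a *Mki67* or *Top2a* UMI (5475 in PC5, 1321 in PC20) the log2 ratio was -2.34 for serine synthesis, -1.27 for the cytosolic arm, -2.62 for the mitochondrial arm and -1.35 for the difference of arms, and *Shmt1* went from -1.38 to -0.73. In thinned cells these 4 values were -2.24, -1.30, -2.48 and -1.18. With means over cells the sums were at -2.23, -1.23 and -2.48. Taking mitochondrial and ribosomal protein genes out of the library size put serine synthesis at -2.13, and centring on the median gene put it at -2.11 and the mitochondrial arm at -2.39. Without *Tyms* the cytosolic arm was at -1.30 and the difference of arms at -1.12. Without *Aldh1l2*, an alternative added after seeing the data, the mitochondrial arm was at -1.87 and the difference at -0.70. The count of genes past 2-fold in PC20 was 7 to 9 in place of 8 under the settings of cells, scaling and detection, but 4 with a pseudocount of 1 and 5 with one of 0.1, which shrink low levels by construction, and it stayed at 0 in PC5. The median fold between the highest and lowest cluster was 2.99 in PC5 and 2.12 in PC20. With the 10 genes allowed among the variable genes it was 3.06 and 2.33. The first medians leave out *Shmt1*, which had too few UMIs in a set of each library, and the second include it. The medians thus cover different genes, and their shift cannot be put down to the setting. No paired analysis was possible because each passage has 1 library, and for that reason no replicate could be left out. Depth limits *Shmt1* most, with 545 UMIs in PC5.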
